A study of Mus musculus with 6 samples.

Results

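Some alveolar type II (ATII) cells of library A carried abundant transcripts of Lyz1 beside those of Lyz2, the lysozyme gene read in 100% of its cells. The Lyz1-positive cells were chosen by their Lyz1 counts, as cells with 3 or more unique molecular identifiers (UMIs, each standing for 1 captured transcript) of Lyz1. They number 1861 of the 16367 cells of library A, of 36540 kept cells in the series. The reference is the 11376 cells of the same library with 0 Lyz1 UMIs, from which 1 cell was paired with each Lyz1-positive cell on total UMIs. Another 2694 cells with 1 Lyz1 UMI and 436 with 2 belong to neither group. Lyz1 itself is therefore described and never counted as a result.

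The study cultured ATII cells of young and old mice to follow their response to interleukin 4 (IL-4), a cytokine of type 2 immunity. Its labels list 6 libraries of mouse lung ATII cells, all with the genotype IL4Ra WT (the IL-4 receptor alpha chain is intact): 3 of expression and 3 of multiplexing tags, each the sole replicate of its group. One expression library holds cells sorted fresh (day 0) from young and old animals, and another holds cells from both ages after culture to day 13. The last holds cells from young animals alone, also cultured to day 13. Cultured wells received the cytokine at 10 ng/ml or PBS from day 3, and each label gives the treatment as a mixed sample. The series title gives IL-4, but its design text writes another interleukin number. Live cells negative for the dye Sytox blue were sorted. Ages and numbers of mice were not given in the sources used here.

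Barcodes carry 3 library tokens that match no label. They are called libraries A, B and C by order of first appearance, and the day, age, mouse and treatment behind each cell are unknown. Library A holds 63658436 UMIs with a median of 3749 per cell, library B 48676834 with 8349, and library C 53329664 with 3341. Libraries A and B share 20 barcodes and libraries A and C share 67, of which 1 and 14 are Lyz1-positive cells of library A. There is 1 library A, so no p-value is given and every interval covers counting error between these cells only. Whether the Lyz1-positive cells come from particular mice was not analysed here.

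Lysozymes are secreted enzymes that cut the peptidoglycan of bacterial cell walls. Mice have a pair of neighbouring lysozyme genes: Lyz2 is the form of macrophages and other myeloid cells and is also made by ATII cells, which store it in lamellar bodies with surfactant. Lyz1 is best known from Paneth cells of the small intestine. ATII cells make surfactant lipids and proteins, and act as stem cells of the alveolar epithelium.

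Both genes lie on the minus strand of chromosome 10 in GRCm38, in the GENCODE annotation. Lyz1 (ENSMUSG00000069515) spans 117287797 to 117292868 and Lyz2 (ENSMUSG00000069516) spans 117277331 to 117282321, 5476 bases apart. Their coding sequences have the same length, 447 bases, and 22 bases differ, an identity of 95.1%. The first 300 coding bases hold 20 of these differences. They are shown in capitals and describe the coding sequences only. The split of reads between near-identical genes bears on every value that follows, but these bases do not show it. The assay reads the far end of transcripts, where identical windows are counted in the next paragraph.
Lyz1: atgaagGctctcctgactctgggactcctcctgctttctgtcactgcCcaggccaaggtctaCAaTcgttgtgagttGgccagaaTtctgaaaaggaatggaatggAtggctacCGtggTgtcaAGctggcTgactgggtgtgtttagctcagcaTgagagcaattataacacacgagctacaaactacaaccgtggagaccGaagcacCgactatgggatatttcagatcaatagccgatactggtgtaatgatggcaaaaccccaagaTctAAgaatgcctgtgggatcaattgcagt
Lyz2: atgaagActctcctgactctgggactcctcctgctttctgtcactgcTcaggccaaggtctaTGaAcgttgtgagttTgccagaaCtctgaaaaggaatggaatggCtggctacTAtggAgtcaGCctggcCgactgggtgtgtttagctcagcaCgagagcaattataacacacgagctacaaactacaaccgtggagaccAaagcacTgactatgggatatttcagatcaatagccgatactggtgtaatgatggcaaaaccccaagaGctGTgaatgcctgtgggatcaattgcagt

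The assay reads the 3 prime ends of transcripts. In the last 500 bases of the annotated Lyz1 transcript, 15 of 411 windows of 90 bases, the length of the second read, also occur letter for letter in the Lyz2 transcript, 3.65%. Over the whole transcript of 1263 bases, 44 of 1174 windows do. Mismatched reads between these genes were not tested beyond this count of identical windows, and how the authors' counting treated reads that match both is not given in the sources used here. As a description that the choice of cells fixes in part, Lyz1 UMIs amounted to 0.183% of Lyz2 UMIs in all cells under the threshold and to 38.7% in the Lyz1-positive cells.

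A stretch upstream of the genes is also alike. Its 80 bases, from 130 to 51 bases before the annotated start in RefSeq (GRCm38.p6), have 10 differing bases, in capitals. Differing bases outside this stretch were not counted. The stretch lies at chr10:117292919-117292998 for Lyz1 and at chr10:117282323-117282402 for Lyz2, both on the minus strand.
Lyz1: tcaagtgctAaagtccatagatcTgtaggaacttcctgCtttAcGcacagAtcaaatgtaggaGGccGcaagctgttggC
Lyz2: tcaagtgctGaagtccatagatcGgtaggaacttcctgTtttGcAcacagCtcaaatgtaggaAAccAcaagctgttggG
In windows of 300 bases around the starts, both strands, the core AGGAAGT of the ETS factors occurs in both genes, as in 9.35% of 32851 promoters. The CCAAT box occurs in the window of Lyz1 and not of Lyz2 (37.4% of promoters hold it), and TATAAA occurs in neither (13.6%). These matches describe letters only.

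Lyz1-positive cells were 11.4% of library A (exact binomial interval 10.9 to 11.9%). Their Lyz1 counts ran from 3 to 305 UMIs, with a median of 31 and quartiles of 10 and 58. At least 20 UMIs were read in 1156 of them, 62.1%, and at least 100 in 137. The cells just inside the threshold, with 3 Lyz1 UMIs, numbered 133, and those just outside it, with 2, numbered 436. Cells with 1 UMI made up most of the remainder that was not at 0.

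The following levels restate the rule by which the cells were chosen. The 1861 cells held 74883 of the 78449 Lyz1 UMIs of the library, 95.5%. Summed over cells, Lyz1 stood at 10175 counts per 1000000 UMIs (CPM) in the Lyz1-positive cells and at 63.3 CPM in all cells under the threshold. Depth did not separate the groups: the median was 3743 UMIs per cell in the Lyz1-positive cells and 3716 in all cells with 0 Lyz1 UMIs. The variance of Lyz1 counts over all cells was 66.5 times their mean, against 33.0 times for the more abundant Lyz2.

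**Figure D1:**
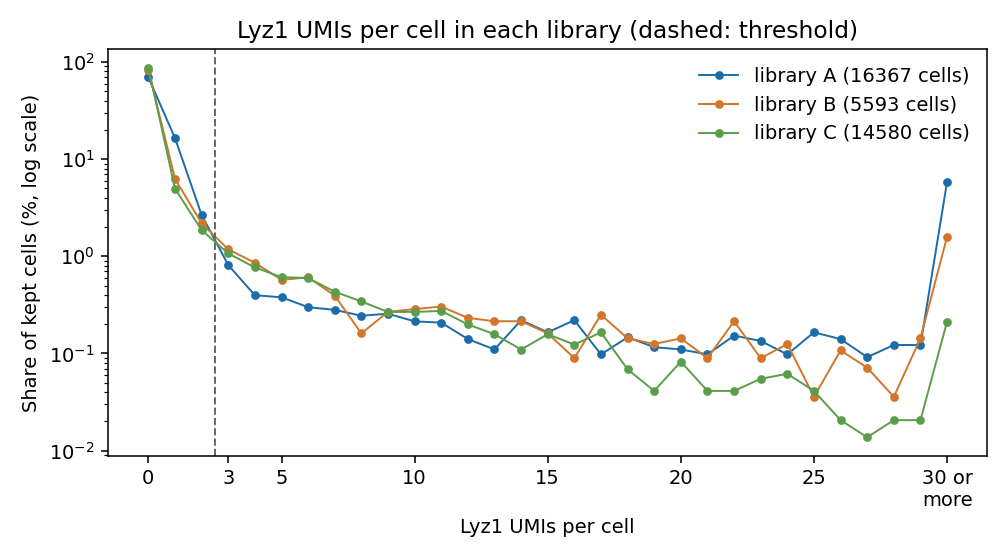
Share of kept cells (percent, log scale) by number of Lyz1 UMIs per cell in libraries A (16367 cells), B (5593 cells) and C (14580 cells). The last point pools cells with 30 or more UMIs and the dashed line marks the threshold of 3. Library A has the largest share with 30 or more, and 19.1% of its cells have 1 or 2.

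Libraries B and C also held cells past the threshold. The share was 8.71% in library B (487 of 5593 cells, 7.98 to 9.48%), with a median of 11 Lyz1 UMIs and a highest value of 182. In library C it was 6.26% (913 of 14580 cells, 5.87 to 6.67%), with a median of 7 and a highest value of 78. The median depth of such cells was 3743 UMIs in library A, 8232 in B and 3699 in C. Lyz2 over all cells was at 33575 CPM in library A, 234 in B and 145 in C, while Lyz1 was at 1232, 206 and 189 CPM.

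The label ATII was checked against 16 markers. All 16 were measured, meaning 20 CPM or more in either group, and 0 differed by 1.5-fold between Lyz1-positive and paired reference cells. Sftpc, which encodes surfactant protein C and is the defining ATII transcript, was at 255619 CPM in Lyz1-positive cells and 256087 CPM in reference cells. Per cell, the median was 980 Sftpc UMIs against 978, and the fifth to 95th percentiles were 559 to 1570 and 567 to 1591. At least 100 Sftpc UMIs were read in all 1861 Lyz1-positive cells and in 99.8% of the paired cells. The Lyz1-positive cells were thus ATII cells by these markers.

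Markers of the cells best known for lysozyme were low in both groups. Of 10 alveolar macrophage markers, Plet1 and Lpl passed 20 CPM, and the list summed to 101 CPM in Lyz1-positive cells and 98.3 CPM in reference cells. Marco, a macrophage scavenger receptor, and Siglecf, the lectin that marks alveolar macrophages, were at 0 in both, and Mrc1 was at 3.13 and 1.90 CPM. A count of 0 allows up to 3 counts per group. The monocyte and interstitial macrophage list summed to 581 and 597 CPM, nearly all of it Apoe (538 and 549 CPM), and C1qa was at 0 in both. Neutrophil markers summed to 0.951 and 0.544 CPM, T or NK markers to 0 in both (4 of 4 genes), and fibroblast markers to 0 and 0.136 CPM. Paneth markers summed to 0.408 and 0.544 CPM, with 4 of 5 genes at 0 in both.

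For the comparison, counts were summed over the 1861 Lyz1-positive cells (7359333 UMIs) and over their 1861 paired reference cells (7358447 UMIs), and differences are given as log2 folds of CPM plus 1, positive where Lyz1-positive cells were higher. Pairs differed by a median of 0 UMIs and at most 241. Cells had a median of 1389 genes against 1391, and 2.43% against 2.42% mitochondrial UMIs. A gene was called when it differed by at least 1.5-fold with 50 CPM or more in either group.

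Apart from Lyz1, the groups were close to identical at this resolution. Of 2478 genes at 50 CPM or more, 0 were called higher (0% of genes tested) and 2 were called lower (0.0807%): Scgb1a1 and Cyp2f2, both transcripts of airway club cells. The middle 90% of genes lay between -0.14 and 0.15, with a median of -0.0025. Within 1.25-fold lay 2470 genes, 99.7%. Beyond it stood Unc119 on the higher side, and Scgb1a1, Cyp2f2, S100a6, Trf, Lyz2, Fmo2 and Mrpl51 on the lower. Among the 85 genes at 1000 CPM or more, 83 lay within 1.25-fold, the exceptions being Scgb1a1 and Lyz2. Without the 24 pairs that hold a barcode also found in another library, the counts were again 0 and 2, with Lyz2 at -0.38, Scgb1a1 at -1.10 and Cyp2f2 at -0.62. A gene at 50 CPM rests on 368 counts per group, which gives an interval of 0.21 on either side of its log2 fold. At 1000 CPM it is 0.047.

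**Figure D2:**
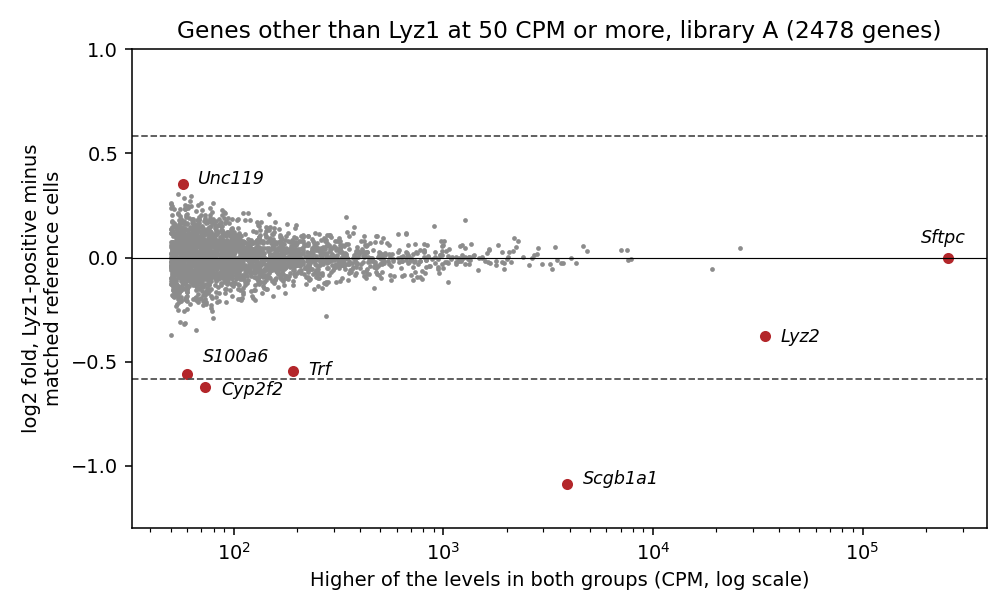
Log2 fold of summed levels, Lyz1-positive minus paired reference cells of library A, against the higher of the levels in both groups (CPM, log scale); each point is 1 of 2478 genes other than Lyz1 and dashed lines mark 1.5-fold. Named points are in red. Scgb1a1 (-1.09) and Cyp2f2 (-0.62) lie below the lower line, Lyz2 (-0.38) lies apart from other abundant genes, and Sftpc lies at 0.

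With the lower limit of 20 CPM, 5146 genes were tested, 1 was called higher (0.0194%) and 3 lower (0.0583%). The gene called higher was Dhcr7, which encodes the last enzyme of cholesterol synthesis, with 20.4 CPM against 12.2 CPM, a log2 fold of 0.69 (0.35 to 1.13). It rests on 150 and 90 counts, and was named after its value was seen. Sprr1a, a cornified envelope gene that marks stressed epithelium, joined Scgb1a1 and Cyp2f2 on the lower side.

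Lyz2 was the abundant ATII transcript that differed. It stood at 26279 CPM in Lyz1-positive cells and 34174 CPM in reference cells, a log2 fold of -0.38 (-0.39 to -0.37), under the 1.5-fold call. Per cell, Lyz1-positive cells had a lower quartile of 60, a median of 91 and an upper quartile of 135 Lyz2 UMIs. Reference cells had 87, 126 and 172. The distributions overlapped widely, and their shift was present at each of these quartiles. Lyz2 was below its reference level in all 15 alternative settings tried, from -0.52 to -0.04. These settings are not independent: some rescale the counts of the main pairs, and leaving out the cell filter repeats the main value. The weakest value came where pairs were matched on Lyz2 itself, which takes the difference away by construction.

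The sum of both lysozymes holds the Lyz1 counts that chose the cells, so it is a description that depends on the threshold. Lyz1 plus Lyz2 stood at 36454 CPM in Lyz1-positive cells against 34174 CPM in reference cells, a log2 fold of 0.093 (0.085 to 0.101). Lyz2 was 7895 CPM lower, and Lyz1 added 10175 CPM. Lyz1 made up 27.9% of the summed lysozyme UMIs of Lyz1-positive cells. Cell by cell, its share ran from 2.34% at the fifth percentile through a median of 27.5% to 59.5% at the 95th percentile, and Lyz1 exceeded Lyz2 in 286 cells, 15.4%. The highest share in a cell was 98.7%.

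The Lyz2 difference was graded with the Lyz1 count. Against their own matched reference cells, cells with 1 Lyz1 UMI had a Lyz2 log2 fold of 0.05 and those with 2 had 0.01. Cells with 3 to 4 UMIs (198 cells) had 0.01, with 33183 CPM against 32934. The value was -0.17 for 5 to 9 UMIs (239 cells), -0.24 for 10 to 19 (268 cells) and -0.42 for 20 to 49 (563 cells). It reached -0.62 for 50 to 99 UMIs (456 cells), with 22367 CPM against 34260, and -0.67 for 100 or more (137 cells), with 22742 CPM against 36147. Cells just past the threshold thus had Lyz2 at its reference level. Cells with 100 or more Lyz1 UMIs were also deeper, with a median of 4621 UMIs.

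The lysozyme sum, set against Lyz2 in the same matched cells, did not follow the same course. Its log2 fold was 0.05 in cells with 3 to 4 Lyz1 UMIs, -0.09 with 5 to 9, -0.06 with 10 to 19 and 0.03 with 20 to 49. It was 0.19 with 50 to 99, at 39173 CPM, and 0.45 with 100 or more, at 49547 CPM. Since these classes are cut on Lyz1 counts, their sums carry the same selection. Over the 1861 Lyz1-positive cells, the shares of UMIs from Lyz1 and Lyz2 had a Pearson correlation of -0.294 (Spearman -0.324), given as a description, as both shares have 1 total.

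**Figure D3:**
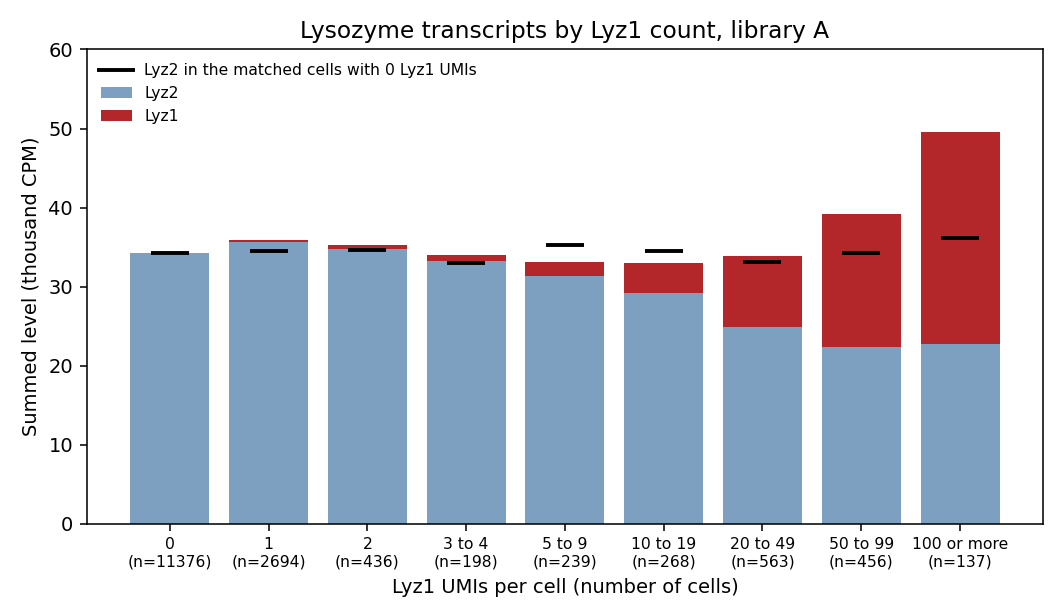
Summed level (CPM, in units of 1000) of Lyz2 (blue) with Lyz1 stacked on top (red) in cells of library A by Lyz1 UMIs per cell, with the number of cells below each bar. Black marks give Lyz2 in the matched cells with 0 Lyz1 UMIs. The blue bars lie below the marks from 5 to 9 UMIs on, and the stacked bars stand highest above them in the classes from 50 UMIs on.

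The other measured genes near Lyz1 were not lower. Within 500 kb lie 32 annotated genes, of which 8 were measured and none overlaps Lyz1. Beside Lyz2 these are Cpsf6 (0.11), Yeats4 (0.18), Frs2 (0.10), Cct2 (0.02), Cpm (0.02), Rab3ip (0.06) and Mdm2 (0.09), as log2 folds. None of these 8 was called. The 7 other than Lyz2 had values above 0, but the interval of each included 0. Cpm, a membrane carboxypeptidase of the alveolar surface, was at 553 and 546 CPM.

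Scgb1a1, the club cell secretoglobin, had the lowest fold among genes at 50 CPM or more. It stood at 1835 CPM in Lyz1-positive cells and 3899 CPM in reference cells, a log2 fold of -1.09 (-1.12 to -1.06). A few cells carried much of it: 22 Lyz1-positive cells and 61 reference cells had 100 or more UMIs, and held 39.8% and 69.0% of the group's Scgb1a1 UMIs. The highest cell had 546 UMIs among Lyz1-positive cells and 3969 among reference cells. Over all cells of each group the median was 1 UMI against 2, and any Scgb1a1 UMI was read in 69.5% against 70.6% of cells. The groups also parted below 100 UMIs: 5 or more were read in 21.3% against 27.7% of cells, and 10 or more in 12.2% against 17.0%. Cells under 100 UMIs had a mean of 4.42 against 4.94. All these shares are against the paired cells, which held more Scgb1a1 than all cells with 0 Lyz1 UMIs together (2607 CPM). The same shares over all those cells are not given here. Without the pair that holds the highest reference cell the log2 fold was -0.88. The counting interval does not cover such unequal spread over cells.

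The size of the Scgb1a1 difference turned on which cells served as reference. All 11376 cells with 0 Lyz1 UMIs together stood at 2607 CPM, which gives a log2 fold of -0.51, under the call, and weighting them to the depth of the Lyz1-positive cells gave -0.59. The difference was not graded with Lyz1. Cells outside the group had -0.20 with 1 Lyz1 UMI and -1.22 with 2 (1710 against 3973 CPM). Past the threshold it was -1.09 with 3 to 4 UMIs, -2.04 with 5 to 9, -0.90 with 10 to 19 and -0.88 with 20 to 49. It was -1.68 with 50 to 99 and 0.09 with 100 or more, where 4193 CPM stood against 3940. The matched reference cells of these classes themselves ran from 2958 CPM (20 to 49) to 5263 CPM (5 to 9).

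Read from the other side, Lyz1-positive cells were 11.3% of the 5000 cells of library A with 0 Scgb1a1 UMIs. They were 12.3% of 5247 cells with 1 to 2 UMIs, 11.5% of 3665 with 3 to 9 and 9.58% of 2139 with 10 to 99 (8.37 to 10.9%). Among the 316 cells with 100 or more Scgb1a1 UMIs they were 6.96% (4.41 to 10.4%). The intervals of the last and the preceding class lie below the share in cells without Scgb1a1, and Lyz2 over the 316 cells was at 50369 CPM. Lyz1-positive cells were thus found at every Scgb1a1 level.

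**Figure D4:**
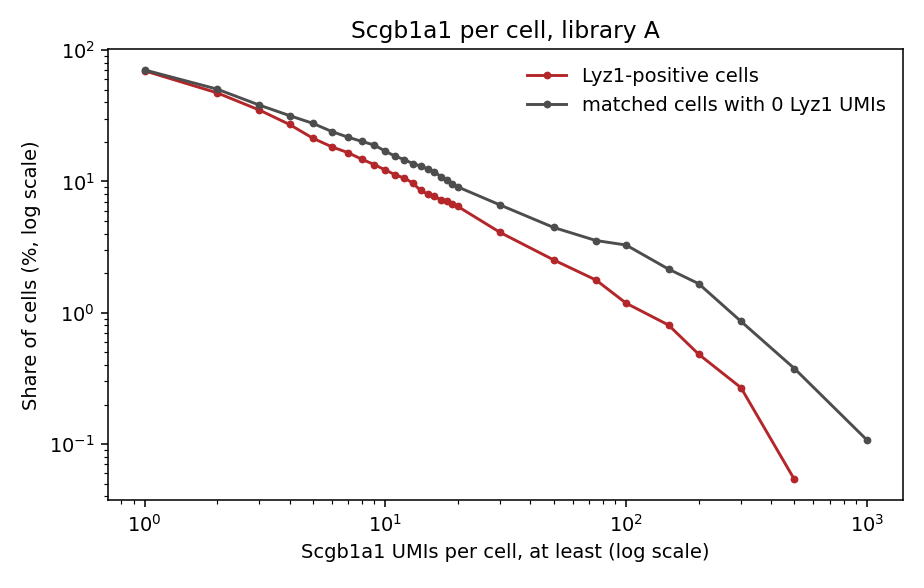
Share of cells (percent, log scale) with at least the number of Scgb1a1 UMIs on the x axis (log scale), for the 1861 Lyz1-positive (red) and 1861 paired reference cells (grey) of library A. The lines start together near 70% and part toward high counts, with 1.18% and 3.28% of cells at 100 or more UMIs.

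Cyp2f2, a cytochrome P450 of club cells, was at 47.2 CPM against 73.1 CPM, a log2 fold of -0.62 (-0.83 to -0.44). Any Cyp2f2 UMI was read in 13.8% of Lyz1-positive and 18.3% of reference cells. All 11376 cells with 0 Lyz1 UMIs together stood at 60.9 CPM, and against them Cyp2f2 was not called. The call for Cyp2f2 held in 6 of 15 alternative settings, among them the setting without the cell filter, which repeats the main values. Of 8 airway secretory markers, Scgb1a1 and Cyp2f2 passed 20 CPM, and both were called lower. Scgb3a2, another secretoglobin, stayed under that limit with 6 against 119 UMIs, of which 7 reference cells held 101. It was at 0.815 CPM in Lyz1-positive cells, 16.2 CPM in the paired cells and 7.10 CPM over all cells with 0 Lyz1 UMIs. The list summed to 1887 CPM against 3995 CPM. Their part in the other differences was not tested.

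Other low genes also rested on few cells. S100a6, a calcium-binding protein of transitional epithelium, was at 40.4 against 59.9 CPM (-0.56, under the call), with 8 and 14 cells of 10 or more UMIs holding 44.8% and 69.8% of its counts. By Lyz1 class, S100a6 was at -0.06 with 3 to 4 Lyz1 UMIs, 2.22 with 5 to 9 (55.8 against 11.2 CPM) and 0.09 with 10 to 19. It was at -1.51 with 20 to 49, -1.53 with 50 to 99 and -1.44 with 100 or more. Trf, which encodes the iron carrier transferrin, was at 130 against 191 CPM (-0.55). No Lyz1-positive cell and 13 reference cells had 10 or more Trf UMIs, and those 13 held 28.6% of the reference counts. Sprr1a was at 9.65 against 26.6 CPM (-1.38, -1.88 to -1.07), with 1 and 6 cells of 10 or more UMIs. Those few cells held 16.9% and 67.3% of the Sprr1a counts.

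The remaining extremes were small. Below came Fmo2, a flavin monooxygenase of lung (-0.37), the mitochondrial ribosome gene Mrpl51 (-0.35), the ubiquitin ligase Rnf19b (-0.32), the deubiquitinase Usp3 (-0.31), F3, the tissue factor that starts coagulation (-0.31), Trmt112 (-0.29), and the polarity scaffold Mpp7 (-0.28, 226 against 275 CPM). Pfkfb4, a regulator of glycolysis, and Rex1bd were at -0.26 each and Ttc3 at -0.25. The highest was Unc119, a chaperone of lipid-modified proteins, at 56.9 against 44.3 CPM (0.35, 0.15 to 0.58). Among the next were Ahcyl1 (0.30), the mitochondrial protease Oma1 (0.29), the receptor kinase Grk3 (0.27), the vitamin K-dependent carboxylase Ggcx (0.26), the monoglyceride lipase Mgll (0.26) and Bcl2l11, which encodes the cell death protein BIM (0.26). Chrac1, Zfp326, Ints6l, Tbl1x, Nfic, Arhgap29 and the G protein subunit Gnai3 lay between 0.24 and 0.25. None of these was called, and they are the outermost of 2478 genes.

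The gene lists hold 452 genes in 37 lists, of which 295 genes reached 20 CPM. Of these, 3 were called: Scgb1a1, Cyp2f2 and Sprr1a, all lower, beside 0.0194% higher and 0.0583% lower among all genes at 20 CPM. In 31 of the 33 lists with a measured gene, 0 genes were called. Medians of the 28 lists with 3 or more measured genes lay between -0.11 and 0.12, and the median of all 5146 genes was -0.00017.

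**Figure D5:**
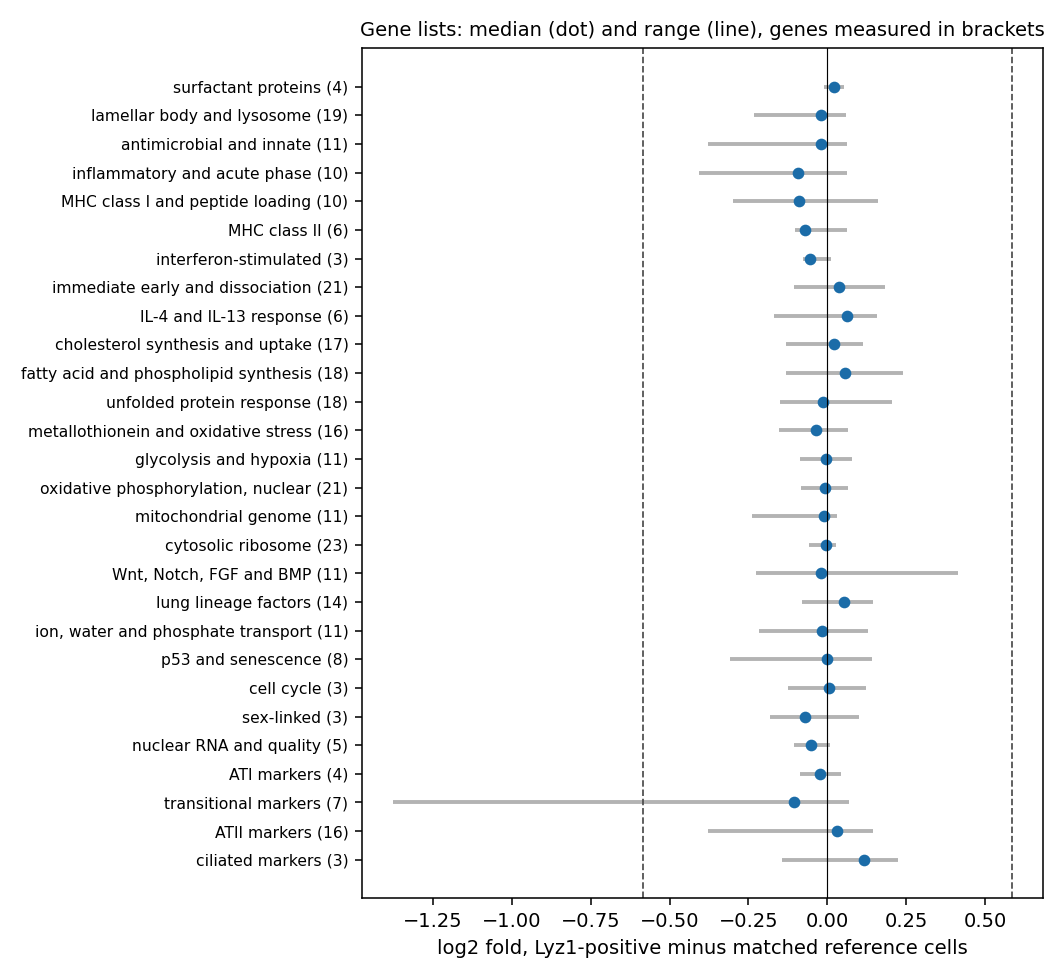
Log2 fold, Lyz1-positive minus paired reference cells of library A, for each list with 3 or more genes at 20 CPM: dots give the median, grey lines the range over measured genes, brackets the number measured, and dashed lines 1.5-fold. Medians lie between -0.11 and 0.12, and the one line that crosses a dashed line belongs to Sprr1a among the transitional markers.

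No surfactant gene was called. Of 4 surfactant protein genes the median was 0.02: Sftpb was at 7549 against 7604 CPM, Sftpa1 at 25893 against 25109 and Sftpd at 4634 against 4465. Of 19 measured genes of lamellar bodies and lysosomes, where lysozyme and surfactant lipid are stored, 0 were called, with a median of -0.02. Abca3, the lipid pump of lamellar bodies, was at 497 against 498 CPM. The protease gene Napsa was at 2033 against 2032 CPM and the phosphate carrier Slc34a2 at 2833 against 2741 CPM.

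No antimicrobial gene was called. The 11 measured, Lyz2 among them, had a median of -0.02. Lcn2, which binds bacterial siderophores, was at 971 against 1054 CPM (-0.12), and Rnase4, a secreted ribonuclease, at 996 against 956 CPM (0.06). The protease inhibitor Slpi was at 84.7 against 81.1 CPM, and Chil1, a chitinase-like protein, at 2075 against 2106 CPM. The lung chemokine Cxcl15 was at 7019 against 6834 CPM.

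Of the inflammatory and antigen presentation genes 0 were called. Most of those measured lay below 0, by small folds. The exceptions were Il33 (0.06), Cxcl15 (0.04), Tapbp (0.16), Psme1 (0.06) and H2-DMb1 (0.06). The 10 measured inflammatory and acute phase genes had a median of -0.09, with Cxcl1, a chemokine for neutrophils, lowest at -0.41 (20.4 against 27.3 CPM). The 10 genes of MHC class I had a median of -0.09, with H2-Q7 lowest at -0.30, and B2m, the shared light chain, was at 236 against 253 CPM. The 6 genes of MHC class II had a median of -0.07, with H2-Aa, H2-Ab1 and H2-Eb1 at -0.10 each. Of 3 measured interferon-stimulated genes and 6 IL-4 or IL-13 response genes, 0 were called. Retnla, a resistin-like target of IL-4, had a log2 fold of -0.17, and was called lower where pairs were matched within 5 classes of the Lyz2 share.

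Immediate early and dissociation genes, which rise during tissue digestion, had a median of 0.04 over 21 genes with 0 called. The heat shock gene Hspa1a was at 1267 against 1117 CPM (0.18), Fos at 898 against 809 CPM (0.15) and Jun at 2268 against 2148 CPM (0.08). Lung lineage factors had a median of 0.05 over 14 genes, with Cebpa at 0.14 and Nkx2-1 at 0.10, both regulators of ATII identity. Of 11 genes of Wnt, Notch, FGF and BMP signalling 0 were called, with the Notch ligand Jag1 highest at 0.41.

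In the metabolic and housekeeping lists 0 genes were called. Cholesterol synthesis had a median of 0.02 over 17 genes and fatty acid and phospholipid synthesis 0.06 over 18. The desaturase Scd1 was at 3414 against 3292 CPM. Over 23 cytosolic ribosomal protein genes, log2 folds lay between -0.06 and 0.03. Nuclear-encoded respiratory chain genes (21), unfolded protein response genes (18), metallothionein and oxidative stress genes (16), mitochondrially encoded genes (11) and glycolysis genes (11) had medians between -0.04 and -0.0028. Malat1, a nuclear RNA that marks RNA quality, was at 18429 against 19149 CPM.

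No marker of another state of the alveolar epithelium was called higher in Lyz1-positive cells. Of 4 measured alveolar type I markers, 3 ciliated markers and 3 cell cycle genes, 0 were called. The list's 6 mitotic genes were each under 20 CPM and summed to 193 against 129 UMIs. Nusap1 had 92 against 98 of these. The others were higher in Lyz1-positive cells: Mki67 25 against 14, Top2a 25 against 6, Cenpf 28 against 7, Cdk1 14 against 1 and Ccnb1 9 against 3. Cells with 3 or more UMIs of the 6 genes numbered 6 and 3 and held 92 and 18 UMIs, so the differences rest on few cells. The 6 genes summed to 26.2 CPM against 17.5, and to 20.4 CPM over all cells with 0 Lyz1 UMIs. Of 7 measured transitional markers, Sprr1a was called lower, while Krt8, the keratin that names the transitional state, was at 509 against 513 CPM. Genes of the Y chromosome were read in both groups: Ddx3y was at 68.5 against 63.9 CPM and Uty at 50.1 against 52.7, with a log2 fold of -0.18 for Eif2s3y. Xist, the RNA of the inactive X, had 3 UMIs in each group.

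The same comparison in libraries B and C gave a different Lyz2 direction. Cells there with 3 or more Lyz1 UMIs had Lyz2 at 595 against 152 CPM in library B (1.96, 1.85 to 2.10) and, in library C, 409 CPM where the paired cells had 97.4 (2.06, 1.90 to 2.24); in library A the value was -0.38. More genes were called there: 68 of 2284 higher (2.98%) and 43 lower (1.88%) in library B, and 14 of 2237 higher (0.626%) and 38 lower (1.7%) in library C. No replicate allows a test of the difference between libraries. The cell mixture of libraries B and C was not matched here, and the cells of library B were deeper.

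Values of some genes there, called or not, can be set beside library A. Scgb1a1 was at 18.7 against 185 CPM in library B (-3.24) and, in library C, 2.93 CPM where the paired cells had 51.0 (-3.72). Rnase4 had 2.14 and 1.93, at levels under 50 CPM, and 0.06 in library A. Among genes named after their values were seen, Saa3, an acute phase protein, had 3.13 and 1.87, and in library A 20 against 5 UMIs, 11 of them in 1 Lyz1-positive cell. Dmkn, an epithelial secreted protein, had 2.34 and 1.77, and was at 26.1 against 26.5 CPM in library A. The chitinase-like Chil4 had -1.29 and -2.91, and the type I marker Hopx -0.58 and -1.03. Sftpc had 0.16 and 0.28.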

How the data were processed

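The deposited table holds unnormalized UMI counts, whole numbers, with genes in rows and barcodes of all libraries in columns. Per the submitters' processing notes, bcl2fastq and Cell Ranger 6.0.1 were used, with GRCm38 and mm10 as builds. How cells were called, doublets treated and mice told apart is not given in the sources used here. Per the labels' protocols the kit was the 10x Genomics 3 prime kit v3.1. GENCODE vM21 (GRCm38) named 52489 of 52636 gene IDs; the 147 others hold 0.0098% of UMIs. Cells under 1000 UMIs, under 500 genes or over 15% mitochondrial UMIs (37 genes) were dropped, which removed 0 barcodes of library A, 1 of B and 43 of C. No clustering and no doublet caller was run.

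Each Lyz1-positive cell was paired, deepest first, with the unused cell of nearest total UMIs among those with 0 Lyz1 UMIs. Counts were summed, scaled to CPM and compared as log2 of CPM plus 1. Intervals are 95%: exact Poisson for levels, exact conditional for ratios of counts, and Clopper-Pearson for shares of cells. Cells are not replicates, so they measure counting error alone. No test was run, as there is 1 sample. A call needs 1.5-fold and 50 CPM in either group (20 CPM for lists). Named genes are the 15 highest and 15 lowest folds, Lyz2, and up to 4 genes with the largest fold in each list, of which 1 gene is not reported here; others are marker genes or are said to be chosen after their values were seen. Surfactant, ATII, antimicrobial and immune genes given for their level, such as Abca3, Lcn2 and B2m, were picked from the lists for their known roles. Scgb3a2, Meg3 and the mitotic genes were picked after their values were seen. The members and the lists were chosen with earlier results of these data known. The scripts were tested on simulated data. Computation used scipy 1.17.1, pandas 2.3.3 and numpy 2.4.6 in Python 3.11.15, R 4.3.3 with edgeR 4.0.16 (TMM factors), and matplotlib 3.10.9. Sequences come from GENCODE transcripts and the RefSeq promoter table (GRCm38.p6).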

Additional observations from a re-analysis of the deposited data

How the results depend on the processing

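The count of genes called lower (2) was 0 without matching. It was 1, Scgb1a1, with a threshold of 2 Lyz1 UMIs, with all reference cells weighted over 20 bins of depth, with a pseudocount of 5 CPM and with a 2-fold call. Pairs matched within 5 classes of the Scgb1a1 share, an alternative chosen after seeing the data, also gave 1, which was S100a6. Neither Scgb1a1 nor Cyp2f2 was called there, and such matching reduces the Scgb1a1 difference by construction. The count was 3 with 5 or more Lyz1 UMIs, within 5 classes of the Lyz2 share, at 20 CPM, with means of cells' shares and with thinning. Within the Lyz2 classes the genes were Scgb1a1, S100a6 and Retnla. In settings that kept 2, Cyp2f2 was at times replaced by Trf or S100a6. Also chosen after seeing the data was leaving out single pairs or pairs with shared barcodes. With no minimum level it was 433. The count called higher (0) was 1 at 20 CPM and 427 with no minimum level, where most genes have few counts. The share of Lyz1-positive cells (11.4%) was 14.0% with 2 or more Lyz1 UMIs, 10.2% with 5 or more, and 10.1% with cells thinned to 2000 UMIs, which left out 288 cells. The 15 alternatives for log2 folds are not independent. Leaving out the cell filter repeats the main values, as the filter removed 0 barcodes of library A. The pseudocount of 5 CPM, the TMM factors and totals without both lysozymes rescale the same pairs. Over 15 alternatives Scgb1a1 stayed between -1.09 and -0.41 and was at least 1.5-fold lower in 13. Cyp2f2 lay between -0.68 and -0.34 and was so in 6, S100a6 between -1.38 and -0.06 in 6, and Trf between -0.62 and -0.41 in 2. Sprr1a lay between -2.46 and -1.07. Of 33 list medians under these 15 alternatives, 471 values moved by less than 1 SD of the list's genes (0.1 for lists of 1 gene) and 24 by more. TMM factors were 0.999 and 1.001. Scgb1a1, Cyp2f2, S100a6, Trf and Lyz2 lay below 0 in 15 of 15, though S100a6 lay above 0 in some classes of Lyz1 count. No paired analysis was possible because each group of the labels has 1 sample. Depth limits genes near 50 CPM, as given with the counts.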
